A study of Mus musculus with 6 samples.

Results

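The 10 genes described here are Dnmt1, Dnmt3a, Dnmt3b, Tet1, Tet2, Tet3, Uhrf1, Asxl1, Jak2 and Ppm1d, the enzymes of DNA methylation together with genes that are recurrently mutated in clonal haematopoiesis. Open chromatin at their loci was read from the peak lists of an assay for transposase-accessible chromatin with sequencing (ATAC-seq), in which the Tn5 transposase inserts sequencing adapters into accessible DNA and a pile of insertions is called as a peak. A locus was taken as the mm10 gene body with 25 kb on each side, and peaks of different lists that shared at least 1 bp were merged into 1 region. The 10 loci held 470 of the 882758 merged regions of the series on chromosomes 1 to 19 and X. The study compared 3 lists from aged and 3 lists from young C57BL/6 mice. All cells were long-term haematopoietic stem cells (LT-HSCs) from bone marrow, sorted as lineage-negative, Kit+, Sca1+, Flk2- and Cd34- and kept overnight at 3% oxygen in a buffered salt solution with serum. The labels give no age in weeks, no sex and no statement of which list came from which animal, so the spread between lists may be technical in part.

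DNA methylation is copied after replication by Dnmt1, which the hemimethylated-DNA reader Uhrf1 brings to newly made DNA, and is set on unmethylated DNA by the de novo methyltransferases Dnmt3a and Dnmt3b. The Tet dioxygenases oxidise methylcytosine and thereby start its removal. In human blood, expanded stem cell clones that carry mutations in DNMT3A, TET2 or ASXL1 become common with age, and JAK2, a cytokine receptor kinase, and PPM1D, a phosphatase that dampens p53 signalling, belong to the same group of mutated genes. Peak lists say where chromatin was open and how strong a peak was. They hold no expression, methylation or mutation data.

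Each list gives 1 peak strength per peak, the −log10 p of the peak caller, whose size follows the depth of that list. Strength is therefore given as a percentile within the list, with 100 for the strongest peaks and 0 for the weakest. In a list from bulk cells, a site open in fewer cells and a site less open in each cell cannot be told apart. List length ran from 129137 to 244692 distinct peaks at the aged and from 110596 to 263956 at the young samples. Aged replicate 3 and young replicate 2 stood apart from the others. Of regions found in each of the other 5 lists they called 75.6% and 62.3%, and for the remaining 4 lists this figure was 97.4% to 99.6%. At the 10 loci aged replicate 3 called 19 of 25 such regions and young replicate 2 called 19 of 29, whereas the remaining 4 lists each called 19 of 19. Young replicate 2 also held only 200 distinct −log10 p values, so many of its peaks share a percentile.

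The sorted cell type was checked on promoter regions. A region within 1 kb of an annotated start was called in all 6 lists for 8 of 12 matched stem cell marker genes, among them Kit, Mecom, Hlf, Meis1 and Fgd5, while Slamf1 had no call in any list. Over all protein-coding genes such a region was called for 33.4%. The same count of marker genes was 0 of 3 for B cells, 0 of 5 for T and NK cells, 0 of 8 for myeloid cells, 0 of 4 for erythroid cells and 0 of 3 for endothelial and stromal cells. With so few genes per cell type, a count of 0 says little beside that share. Single lists did call some promoters of these other cell types. Of the 8 myeloid genes the aged lists called 2, 2 and 1 and the young lists 3, 3 and 4. Mpo was called in every list but aged replicate 1. Lyz2 was called in aged replicates 1 and 2 and young replicates 1 and 3, and Itgam in aged replicate 1 and every young list. S100a8 was called in young replicate 2 alone and S100a9 in young replicate 3 alone. Elane, Prtn3 and Ctsg had no call in any list. Of the 3 B cell genes the aged lists called 2, 3 and 0 and the young lists 1, 1 and 2. Of the 5 T and NK cell genes the aged lists called 0, 2 and 0 and the young lists 1, 3 and 0, and of the 4 erythroid genes they were 3, 2 and 0 in aged lists and 2, 1 and 2 in young lists. Endothelial and stromal genes gave 2, 1 and 1 calls in aged lists and 1, 0 and 3 in young lists. The part of such cells in the results below was not tested.

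The sequences upstream of 5 annotated starts are shown because they bracket what was seen at promoters: a start with no call in any list, a start of the same gene at which most summits lay, both promoters of Dnmt3a, and the start with the highest ranks. Each is the 250 bases before the start, 5′ to 3′ on the strand of the gene, from the RefSeq promoter table (build GRCm38.p6, which corresponds to mm10), with CG dinucleotides in capitals. The first is the most 5′ start of Dnmt1, chr9:20959889-20960138 on the minus strand, and the second lies upstream of its internal start, chr9:20952980-20953229 on the minus strand. The Dnmt3a sequences are chr12:3806730-3806979 and chr12:3891494-3891743 and the Asxl1 sequence is chr2:153345580-153345829, all on the plus strand.
Dnmt1 most 5′ start: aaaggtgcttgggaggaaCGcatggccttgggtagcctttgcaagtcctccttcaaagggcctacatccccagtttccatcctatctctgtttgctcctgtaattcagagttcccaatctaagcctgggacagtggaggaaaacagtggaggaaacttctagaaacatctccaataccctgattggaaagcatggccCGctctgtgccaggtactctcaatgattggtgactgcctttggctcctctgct
Dnmt1 internal start: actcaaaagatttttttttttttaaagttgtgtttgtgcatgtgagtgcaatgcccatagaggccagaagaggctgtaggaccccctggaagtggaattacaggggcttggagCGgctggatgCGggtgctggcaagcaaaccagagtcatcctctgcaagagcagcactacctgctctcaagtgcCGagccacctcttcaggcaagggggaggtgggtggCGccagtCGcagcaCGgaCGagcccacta
Dnmt3a first promoter: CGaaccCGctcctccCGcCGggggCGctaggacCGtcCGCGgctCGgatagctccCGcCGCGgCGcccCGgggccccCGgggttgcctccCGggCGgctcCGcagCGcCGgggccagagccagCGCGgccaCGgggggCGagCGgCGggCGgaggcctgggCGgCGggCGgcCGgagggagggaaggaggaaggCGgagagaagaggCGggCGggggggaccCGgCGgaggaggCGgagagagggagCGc
Dnmt3a internal promoter: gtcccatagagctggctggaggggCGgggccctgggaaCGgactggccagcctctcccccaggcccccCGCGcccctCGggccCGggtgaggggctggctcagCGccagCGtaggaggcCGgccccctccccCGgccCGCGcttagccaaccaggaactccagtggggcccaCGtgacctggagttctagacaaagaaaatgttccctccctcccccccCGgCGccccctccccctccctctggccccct
Asxl1 start: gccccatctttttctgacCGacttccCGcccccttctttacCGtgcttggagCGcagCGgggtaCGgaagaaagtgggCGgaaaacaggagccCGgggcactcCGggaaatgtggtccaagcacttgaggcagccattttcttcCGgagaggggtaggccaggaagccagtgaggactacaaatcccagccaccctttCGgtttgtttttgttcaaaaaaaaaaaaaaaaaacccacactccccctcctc
The upstream sequences hold 2 and 7 CG dinucleotides at the Dnmt1 starts, 38 and 15 at the Dnmt3a starts and 11 at the Asxl1 start. The first Dnmt3a promoter is by far the densest of the 5, and the most 5′ Dnmt1 sequence is close to bare of CG.

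Most regions at the 10 loci were seen in a single list. Of the 470 regions, 351 (74.7%) were called in 1 list, 52 in 2, 19 in 3, 13 in 4, 16 in 5 and 19 (4.04%) in all 6. Over all merged regions of the series 1.09% were called in all 6 lists and 85.2% in 1 list. Among regions within 25 kb of any protein-coding gene the shares were 1.61% and 82.9%. At least 5 lists called 35 of the 470 regions (7.45%), against 2.15% of all merged regions and 3.07% of those near protein-coding genes. Of the 16 regions called in 5 lists, 10 were missing in young replicate 2 and 6 in aged replicate 3. With these 2 lists left out, 40 of 343 regions (11.7%) were called in all 4 remaining lists, against 5.97% near protein-coding genes.

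Recurrence differed by position within the locus. At annotated starts of the 10 genes 8 of 19 regions (42.1%) were called in all 6 lists. At starts or ends of neighbouring genes the count was 7 of 27 (25.9%). Inside the genes but away from starts it was 4 of 255 (1.57%), and in the flanks it was 0 of 169. Over all genes 13.7% of the regions at a start or end were called in all 6 lists, against 32.6% (15 of 46) at the 10 loci, and 0.451% of the regions inside protein-coding genes and away from starts.

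A promoter region called in all 6 lists stood at the most 5′ start of 5 of the 10 genes, namely Dnmt3a, Tet3, Asxl1, Jak2 and Ppm1d. This held for 31.9% of 17274 protein-coding genes. When any annotated start counted, Dnmt1 joined them and the count was 6 of 10, against 33.4%. At least 5 lists called a region at some start of 8 of the 10 genes, against 48.8%, and the 2 that were added, Tet2 and Uhrf1, were missing in young replicate 2 alone. Dnmt3b and Tet1 reached 4 lists. With aged replicate 3 and young replicate 2 left out, the most 5′ start of 7 of the 10 genes had a region in all 4 lists, against 51.7% of protein-coding genes. Uhrf1 is counted here through the region at its downstream start, which overlaps the 1 kb window of the most 5′ start.

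**Figure D1:**
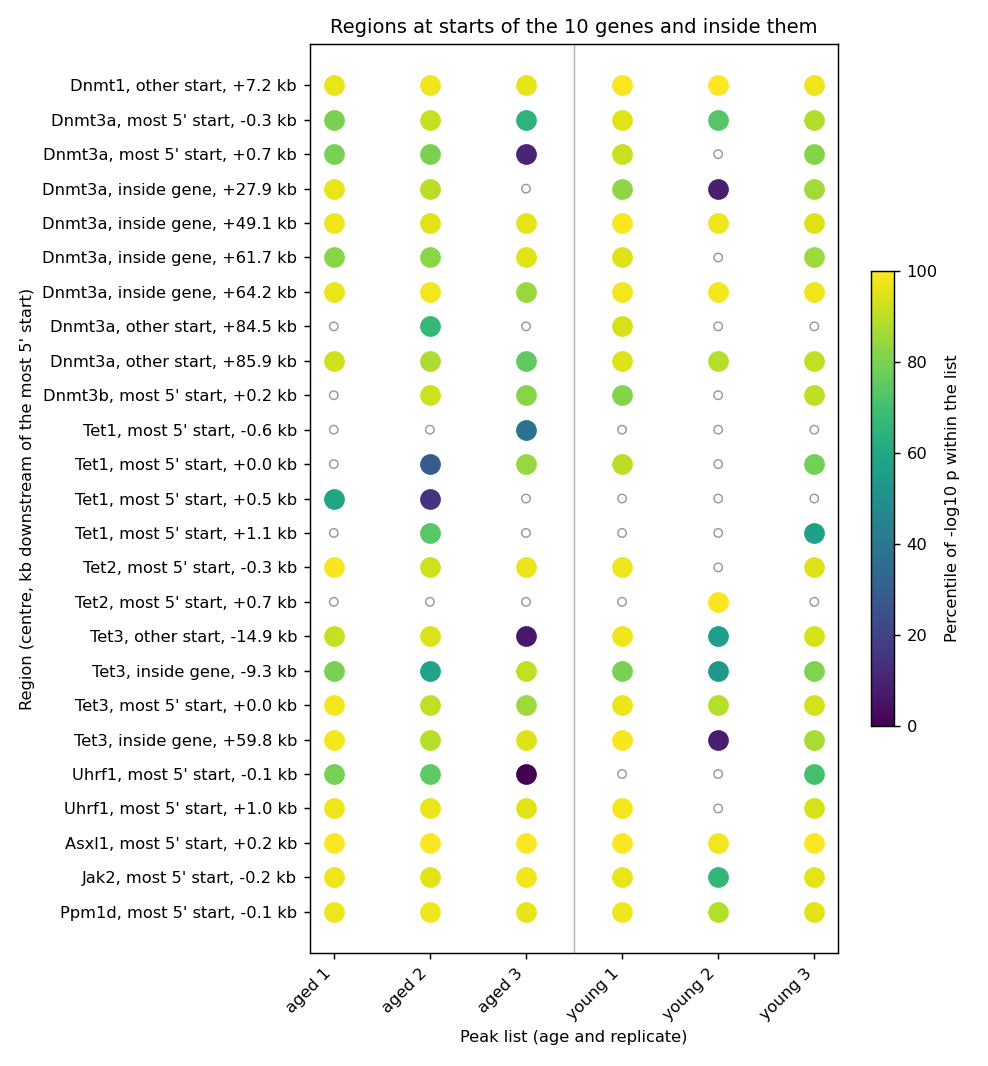
Percentile of the −log10 p within each list (colour, 0 to 100) for regions at the starts of the 10 genes and for regions inside Dnmt3a and Tet3, with aged lists on the left and young lists on the right. Small open circles mark lists without a call. The main promoter regions of Tet2 and Uhrf1 lack a call in young replicate 2 alone.

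Dnmt1, the maintenance methyltransferase, had its promoter calls at an internal start. No list called a region within 1 kb of the most 5′ start at position 20959888 of chromosome 9, the start whose upstream sequence holds 2 CG dinucleotides. The nearest recurrent region, chr9:20961440-20961866 at −1.765 kb, was called in aged replicates 1 and 2 at 95.5 and 84.8 and in young replicate 3 at 72.4. The region chr9:20952301-20953134 covers both further starts of the annotation, 6.909 kb and 7.265 kb downstream. Its percentile was 96.8, 97.7 and 96.5 in the aged lists and 98.96, 99.997 and 97.6 in the young lists. All 6 values are high, and the ages overlap, since aged replicate 2 lies just above young replicate 3. The summit, the point of highest pileup, fell at 324, 12 and 34 bp downstream of the start at 20952979 in the aged lists and at −7, 23 and 5 bp in the young lists, so that 5 of 6 summits lay within 50 bp of it. Among 2402 protein-coding genes with a start more than 2 kb from the most 5′ one, 2.87% had a later start called in all 6 lists and no region in any list at the most 5′ one.

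The rest of Dnmt1 was sparsely called. Of 19 regions inside the gene and away from starts none was called in more than 3 lists. The 1 region that all young and no aged lists called, chr9:20915877-20916443, lies 43.728 kb downstream of the most 5′ start. Its percentile in the young lists was 0.203, 73.1 and 31.9, which places it among the weakest peaks of young replicate 1. A region at chr9:20930663-20930896 was called in young replicates 1 and 2 alone, at 0.203 and 98.2, and chr9:20910265-20910543 in young replicate 1 alone, at 81.3. Exons and introns were not resolved for these intragenic regions, since no exon annotation was used.

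Uhrf1, which reads hemimethylated DNA and recruits Dnmt1, has annotated starts 0.976 kb apart on chromosome 17, and each had its own region. The region chr17:56304008-56304571 at the downstream start ranked at 97.4, 96.8 and 95.1 in the aged lists and at 98.4 and 93.7 in young replicates 1 and 3, with no call in young replicate 2. Its summits lay at −181 to −53 bp from that start. The region chr17:56303009-56303436 at the most 5′ start ranked at 79.2, 75.3 and 0.0596 in the aged lists and at 70.0 in young replicate 3, with no call in young replicates 1 and 2. Wherever both were called, the downstream region was the stronger. Inside the gene the most recurrent regions, chr17:56317433-56317857, chr17:56315481-56315709 and chr17:56312173-56312476, were each called in 2 lists, 1 aged and 1 young.

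Dnmt3a, a de novo methyltransferase and the gene most often mutated in human clonal haematopoiesis, had the most regions of the 10 loci: 77, of which 4 were called in all 6 lists. Per 100 kb, Uhrf1 held 49.9 and Tet3 47.6 regions, and Dnmt3a, the longest locus, held 47.3. At its first promoter, whose upstream sequence is dense in CG, chr12:3806268-3807132 ranked at 79.99, 91.2 and 64.7 in the aged lists and at 95.02, 73.1 and 88.6 in the young lists. The values of the ages overlap. Its summits lay at −614 to −504 bp from the start at 3806980. A neighbouring region, chr12:3807280-3808075, had its summits 608 to 831 bp downstream of the next start at 3807160 and ranked at 79.4, 79.7 and 10.6 in the aged lists and at 91.5 and 81.5 in young replicates 1 and 3, with no call in young replicate 2. The first region covers the CG-dense sequence shown above, while the summits of both regions lay outside it, and no summit in any list fell between these starts. No list called a region at the outer 5′ end of the gene body, at −5.421 kb.

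The internal promoter of Dnmt3a, 84.764 kb downstream, gives rise to the shorter protein isoform. The region on its upstream side, chr12:3891315-3891689, was called in aged replicate 2 at 66.4 and in young replicate 1 at 93.4 alone. The region on its downstream side, chr12:3892508-3893166, was called in all 6 lists, at 92.8, 87.5 and 75.8 in the aged lists and at 94.8, 88.8 and 90.9 in the young lists. Its summits lay 1063 to 1186 bp downstream of the start at 3891744. Among the 2402 protein-coding genes with such a second start, both starts were called in all 6 lists in 4.16%. Dnmt3a meets this count only because the downstream region overlaps the 1 kb window of the internal start. All summits of that region lay outside the window.

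Between its promoters Dnmt3a held intragenic regions that ranked above the promoters themselves. The region chr12:3855688-3856504, 49.116 kb downstream of the first promoter, ranked at 97.9, 95.02 and 95.9 in the aged lists and at 99.1, 97.6 and 94.7 in the young lists. At 64.182 kb, chr12:3870857-3871467 ranked at 97.2, 98.2 and 84.5 in the aged lists and at 98.2, 98.6 and 97.4 in the young lists. Both were strong at each age, and their values overlap between the ages. Another region, chr12:3868546-3868890, was missing in young replicate 2 alone and ranked at 82.4, 82.7 and 95.2 in the aged lists and at 94.5 and 85.1 in the other two young lists. Upstream of the gene, at −15.029 kb from the first promoter, chr12:3791758-3792144 was called in 5 lists, at 98.3, 95.8 and 99.3 in the aged lists and at 93.5 and 94.4 in young replicates 1 and 3. Further upstream, at −25.339 kb, chr12:3781433-3781849 was also called in 5 lists. It ranked at 98.7 and 93.4 in aged replicates 1 and 2 and at 98.2, 61.5 and 94.0 in the young lists.

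Dnmt3b, the other de novo methyltransferase, had a promoter region in 4 lists. It lies at chr2:153649190-153650138 and ranked at 92.3 and 82.0 in aged replicates 2 and 3 and at 81.3 and 90.2 in young replicates 1 and 3. Aged replicate 1 and young replicate 2 had no call. The region recurred in as many aged as young lists. Inside the gene no region was called in more than 2 lists, among them chr2:153686964-153687355 (1 aged and 1 young), chr2:153678293-153678699 (2 young) and chr2:153658366-153658760 (1 aged and 1 young).

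**Figure D2:**
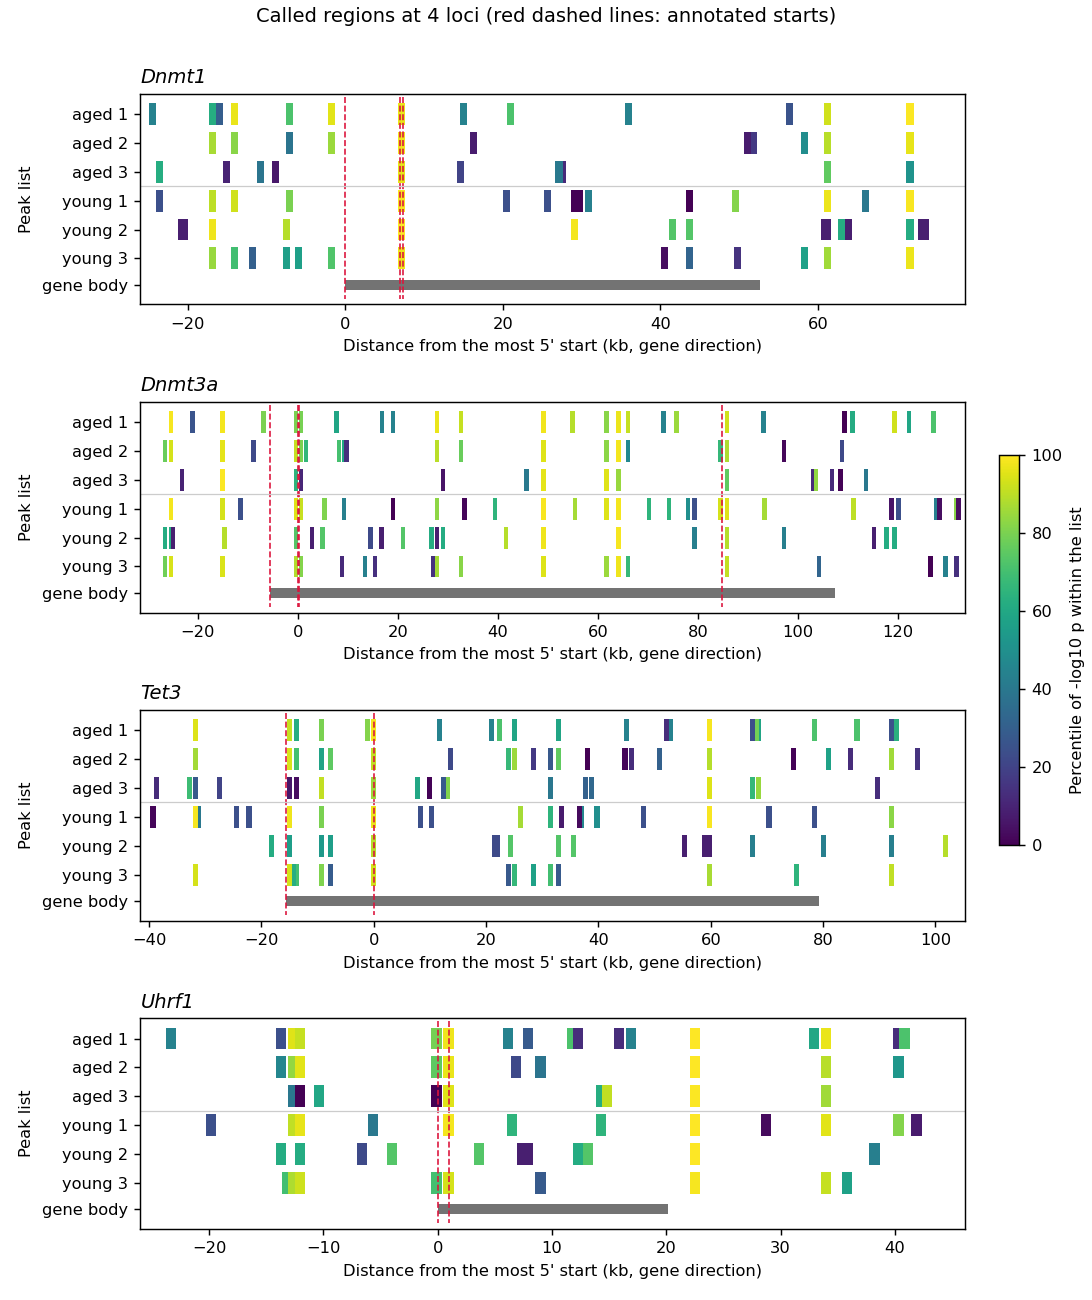
Regions called in each list at 4 loci, placed by distance of the region centre from the most 5′ start in the direction of the gene (kb), with 1 row per list, aged above young, and colour for the percentile within the list. Bars have a fixed width and do not show region length. Dnmt1 has a column of strong calls in all 6 lists at the starts near 7 kb and none at 0 kb, and Dnmt3a has such columns at 49.116 and 64.182 kb.

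Tet1, a methylcytosine dioxygenase, had the most scattered promoter of the 10 genes. A region over its start, chr10:62887111-62887539, ranked at 28.8 and 84.1 in aged replicates 2 and 3 and at 89.7 and 78.6 in young replicates 1 and 3. Within 1 kb of the start 3 more regions were called in 1 or 2 lists each: chr10:62886741-62886992 in aged replicates 1 and 2 at 59.0 and 14.7, chr10:62885972-62886549 in aged replicate 2 at 73.9 and young replicate 3 at 57.3, and chr10:62887759-62888051 in aged replicate 3 at 37.3. Young replicate 2 had no call in the window. At −3.898 kb from the start, chr10:62891083-62891362 was called in 5 lists, at 28.9 and 79.8 in aged replicates 1 and 2 and at 92.1, 73.1 and 85.2 in the young lists. Inside the gene, chr10:62863620-62863937, chr10:62847315-62847721 and chr10:62843813-62844092 were each found in aged replicates 1 and 2 plus 1 young list.

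Tet2, whose loss in mice expands stem cells, showed 1 strong promoter region and no region called in more than 2 lists elsewhere inside the gene. The region chr3:133544126-133545339 ranked at 99.1, 92.5 and 97.0 in the aged lists and at 97.7 and 94.7 in young replicates 1 and 3. Its summits lay 30 to 61 bp downstream of the start in all 5 lists. Young replicate 2 did not call it, and instead held a peak of its own at chr3:133543389-133543951, at a percentile of 99.1 and with its summit 562 bp downstream of the start. That peak was absent from the other 5 lists. Inside Tet2 the most recurrent regions, chr3:133502917-133503558 and chr3:133482898-133483270, were called in 1 aged and 1 young list each, and chr3:133522375-133522593 was called in young replicate 2 only. At the far end of the gene, chr3:133463269-133463617 in the 3′ flank was called in aged replicates 1 and 2 at 94.6 and 81.6 and in young replicates 1 and 3 at 97.2 and 87.7. Tet2 was the 1 locus of the 10 without any region called in all 6 lists.

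Tet3, the other dioxygenase, had 4 regions called in all 6 lists. The promoter region chr6:83441346-83441980 lies at a start that it shares with the neighbouring transcript B230319C09Rik and ranked at 98.6, 90.9 and 85.5 in the aged lists and at 97.0, 88.8 and 93.2 in the young lists. The region chr6:83456176-83457050 at the outer 5′ end of the gene body, at −15.53 kb from that start, ranked at 91.3, 94.4 and 6.61 in the aged lists and at 97.7, 55.6 and 93.7 in the young lists. Its lowest values belong to aged replicate 3 and young replicate 2. Between these starts chr6:83450680-83451206 ranked at 79.99, 57.9 and 90.9 in the aged lists and at 79.7, 53.6 and 80.7 in the young lists. Deep in the gene, 59.794 kb downstream of the start, chr6:83381502-83382266 ranked at 98.5, 89.0 and 94.8 in the aged lists and at 98.996, 8.54 and 87.0 in the young lists. The values of all 4 regions overlap between the ages. A further intragenic region, chr6:83408567-83408958, was present in aged replicate 1 at 58.6, aged replicate 2 at 75.5, young replicate 2 at 73.1 and young replicate 3 at 27.9.

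At least 2 intragenic regions called in all 6 lists, away from any start, were found in 2 of the 10 genes, Dnmt3a and Tet3. The share was 1.08% of 21631 protein-coding genes, and 3.54% of the 1214 such genes that span 80 to 120 kb. The gene bodies of Dnmt3a and Tet3 span 112.885 and 94.836 kb. Tet1 (82.9 kb) and Tet2 (81.46 kb), which fall in the same class of length, had no intragenic region called in all 6 lists.

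Asxl1, a partner of the BAP1 histone deubiquitinase, had the strongest promoter region of the 10 genes in 5 of the 6 lists. In young replicate 2 the regions at starts of Dnmt1 and Tet2 ranked above it. The region chr2:153345361-153346687 also reaches an end of the neighbouring gene 2500004C02Rik. It ranked at 99.8, 99.6 and 99.9 in the aged lists and at 99.99, 98.2 and 99.9 in the young lists, and its summits lay at −244 to −149 bp from the start. The sequence shown for this start holds 11 CG dinucleotides, far fewer than that of the first Dnmt3a promoter, which ranked lower in all 6 lists. Inside Asxl1 the regions chr2:153391677-153392136, chr2:153400811-153401411 and chr2:153350929-153351164 were called in 2 lists each.

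Jak2, the kinase of the erythropoietin and thrombopoietin receptors, had its promoter region at chr19:29250997-29252159. It ranked at 97.3, 95.5 and 98.0 in the aged lists and at 96.8, 66.0 and 96.1 in the young lists. Young replicate 2 was the 1 low list. At 2.169 kb into the gene, chr19:29253848-29254096 was present in aged replicate 1 at 93.3, aged replicate 2 at 81.4, young replicate 1 at 89.96 and young replicate 3 at 0.118. Of the other intragenic regions chr19:29271074-29271481 was called in 3 lists and chr19:29290846-29291074 in 2.

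Ppm1d, the p53-dampening phosphatase, had its promoter region at chr11:85310628-85311703. It ranked at 97.5, 98.0 and 96.2 in the aged lists and at 98.0, 88.8 and 95.6 in the young lists. Its summits lay at −177 to −12 bp from the start in 5 lists and at 267 bp in young replicate 2. The region chr11:85323725-85324342, 12.779 kb into the gene, was present in aged replicate 1 at 84.9, aged replicate 2 at 76.4, young replicate 1 at 83.3 and young replicate 3 at 59.6. Further inside, chr11:85334726-85335117 was called in 3 lists and chr11:85339614-85340009 in 2.

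The comparison of aged with young LT-HSCs asks whether chromatin at these loci opens or closes with age. No such difference stood beyond the spread between lists. The aged lists called 168, 118 and 91 regions at the 10 loci and the young lists 154, 130 and 97. An aged list called 125.7 ± 39.1 regions on average and a young list 127.0 ± 28.6 (mean ± SD, n = 3 each), a difference of −1.33 regions (p = 1, exact two-sided permutation test, whose smallest possible p is 0.1). The direction of this difference turned with the peak threshold and the flank, and it ran from −22.5 (without aged replicate 1) to 16.0 (without aged replicate 3) when 1 list was left out. The titles give the aged and the young sample of each replicate number a shared number after exp, whose meaning is not stated. A further number before exp, also of unstated meaning, is the same at both ages in replicates 2 and 3. In replicate 1 it is several times larger for the aged sample. Its bearing on the counts was not tested. Within the pairs of the same replicate number the difference was 14, −12 and −6 regions for replicates 1, 2 and 3. As a share of all peaks of a list, the loci held 0.0707%, 0.0937% and 0.0716% in aged lists and 0.0595%, 0.0522% and 0.0904% in young lists. The mean share was 0.0787% ± 0.0130 for aged lists and 0.0674% ± 0.0203 for young ones (mean ± SD, n = 3 each), a difference of 0.0113 percentage points (p = 0.5, exact two-sided permutation test). It was 0.00371 without young replicate 2 and 0.0228 without young replicate 3, and within the same pairs it was 0.0112, 0.0415 and −0.0189. The 95% Wilson intervals of single lists cover counting error alone. For aged replicates 1, 2 and 3 they were 0.0609% to 0.0820%, 0.0784% to 0.112% and 0.0584% to 0.0877%. For young replicates 1, 2 and 3 they were 0.0509% to 0.0695%, 0.0440% to 0.0618% and 0.0744% to 0.110%.

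Counts per locus overlapped between the ages at all 10 loci. Tet1 came closest to a separation, with 19, 19 and 13 regions in the aged lists and 13, 12 and 9 in the young lists. Dnmt1 was the closest in the other direction, with 13, 11 and 10 in the aged lists and 15, 15 and 13 in the young lists. Dnmt3a had 25, 20 and 15 in the aged lists and 29, 23 and 20 in the young lists, and Tet2 had 15, 5 and 6 in the aged lists and 17, 13 and 4 in the young lists. The lists of replicate 1, which are long at both ages, gave the highest count in 8 of the 10 loci within the aged group, and tied for it at Tet1 and Tet3.

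**Figure D3:**
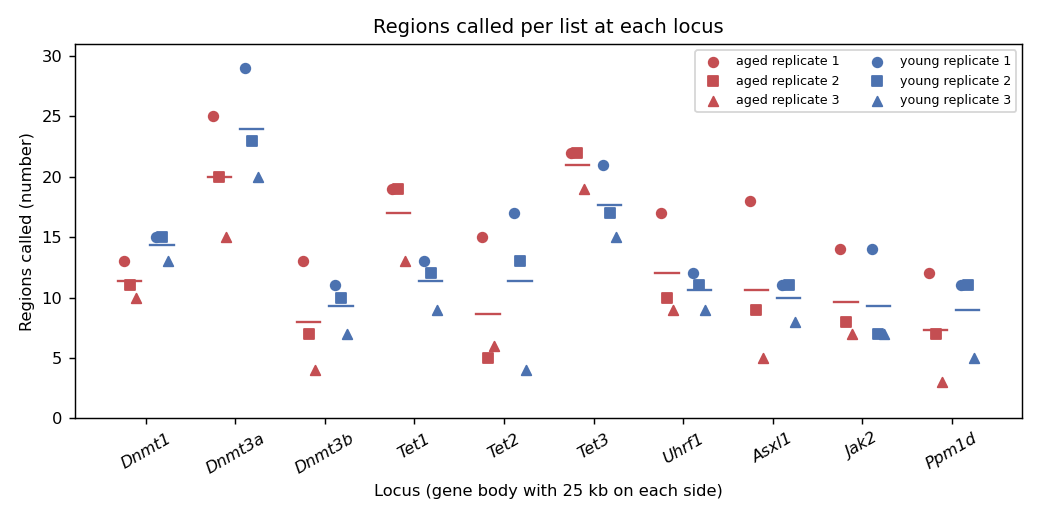
Number of regions called per list at each of the 10 loci (gene body with 25 kb on each side), with aged lists in red left of young lists in blue, 1 symbol per replicate and a line at the mean. The points of the ages overlap or touch at every locus, with Tet1 (13 to 19 aged, 9 to 13 young) and Dnmt1 (10 to 13 aged, 13 to 15 young) the closest to separate.

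Calls in all lists of one age and in no list of the other were rare. All 3 aged lists and no young list called 0 of the 470 regions, against 0.0502% of all merged regions and 0.0558% of those near protein-coding genes. All 3 young lists and no aged list called 1 region (0.213%), the intragenic Dnmt1 region described above, against 0.0608% and 0.0708%. A count of 1 in 470 does not set the loci apart. The region was no longer called in this way when peaks were limited to a q-value of at most 0.05. Without aged replicate 3 alone the aged count was 7 of 422 regions, and without young replicate 3 alone the young count was 6 of 447. Leaving out a list asks for fewer calls, and the shares above hold for all 6 lists. The share over all regions was not computed with 1 list left out, so these 2 counts cannot be set against a background. With aged replicate 3 and young replicate 2 left out, both aged and no young lists called 8 of 343 regions (2.33%, against 1.4% near protein-coding genes), and both young and no aged lists called 2 (0.583%, against 1.08%).

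The strength of the regions called in all 6 lists was compared as a rank within the 9582 regions of the series that all 6 lists called, so that every list has the same number of ranks. The aged values did not overlap the young ones for 2 of the 19 regions at the 10 loci, while 9.68% of the 9582 regions showed such a separation. In both regions the aged lists ranked lower, as in 4.69% of all 9582. The first was the internal Dnmt1 promoter region, at 43.8, 71.4 and 60.3 in the aged lists and 74.8, 99.9 and 74.9 in the young lists. The mean rank was 58.5 ± 13.9 at the aged and 83.2 ± 14.5 at the young samples (mean ± SD, n = 3 each), a difference of −24.7 percentile points, and −16.4 without young replicate 2. The second was the region downstream of the internal Dnmt3a promoter, at 17.0, 9.89 and 18.05 in the aged lists and 20.9, 57.7 and 26.7 in the young lists. The mean rank was 15.0 ± 4.45 at the aged and 35.1 ± 19.8 at the young samples (mean ± SD, n = 3 each), a difference of −20.1 percentile points. The young mean rests on young replicate 2, and without that list it was 23.8 and the difference −8.83. As percentiles of the whole list, the values of both regions overlapped between the ages. No test was run on single ranks, and 2 of 19 is close to the background share. The count of 2 became 4 to 6 when any 1 list was left out. Fewer values then have to separate, and the 9.68% holds for all 6 lists. The background share was not computed with 1 list left out, so this rise cannot be read as an excess. Within pairs of the same replicate number the differences were −31.0, −28.5 and −14.6 at Dnmt1 and −3.87, −47.8 and −8.69 at Dnmt3a.

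The other promoters overlapped between the ages on this scale. The first Dnmt3a promoter region averaged 12.7 ± 8.39 in aged and 27.9 ± 13.8 in young lists. Tet3 averaged 38.7 ± 27.1 in aged and 46.0 ± 10.2 in young lists. For Asxl1 the means were 96.8 ± 1.88 in aged and 91.8 ± 12.8 in young lists, with the low value of 77.0 in young replicate 2. Jak2 averaged 58.6 ± 15.1 in aged and 45.1 ± 13.2 in young lists, and Ppm1d averaged 62.02 ± 11.6 in the aged and 56.7 ± 0.855 in the young group (mean ± SD, n = 3 each throughout). Within pairs of the same replicate number the differences were −17.9, −22.4 and −5.20 at the first Dnmt3a promoter and 12.2, 12.5 and 15.7 at Jak2. Their signs were mixed at Tet3, Asxl1 and Ppm1d. Of the promoters of Dnmt1, Dnmt3a, Tet3, Asxl1, Jak2 and Ppm1d, Asxl1 had the highest mean rank and Dnmt3a the lowest at both ages.

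**Figure D4:**
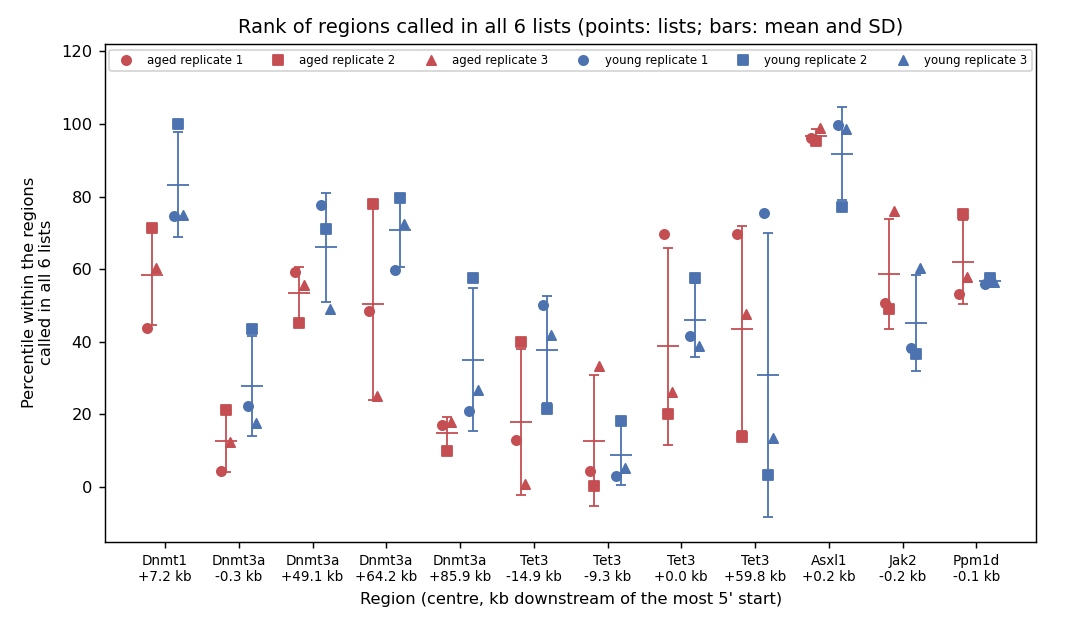
Percentile of the −log10 p within the 9582 regions called in all 6 lists, for 12 regions at the starts of the 10 genes or inside them, with aged lists in red left of young lists in blue, points for lists, and bars for the mean and SD (n = 3 each). The aged and young points separate at Dnmt1 +7.2 kb and Dnmt3a +85.9 kb and overlap at the other 10 regions.

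Sequence features that played no part in the choice of the genes were read from the promoter table. It holds 300 bases around each start, 250 of them upstream. The 15 starts of the 10 genes had a median of 30 CG dinucleotides in this window, and the 32619 starts of the table had a median of 7. Starts of the table were not limited to protein-coding genes, here and for the motifs below. Among the 15 starts the CG count is lowest at the most 5′ Dnmt1 start with 2, which no list called, and highest at the Tet2 start with 57. The internal Dnmt1 starts held 12 and 33, the Dnmt3a starts 46, 47 and 18, Dnmt3b 30, Tet1 17, Tet3 22, Uhrf1 12 and 33, Asxl1 13, Jak2 44 and Ppm1d 30. Across the table, starts without a region in any list had a median of 3 and starts with a region in all 6 lists a median of 23. The uncalled Dnmt1 start lies within the quartiles of uncalled starts (1 to 5). Of the starts of the 10 genes that were called in 6 lists, Asxl1 with 13 and the Dnmt1 start at 20952979 with 12 lie below the quartiles of all such starts (16 to 31), while Dnmt3a with 46 and 47, Jak2 with 44 and the Dnmt1 start at 20952623 with 33 lie above them. At 5 lists Tet2 with 57 and the downstream Uhrf1 start with 33 lie above the upper quartile (28), and at 4 lists Dnmt3b with 30 does (24).

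**Figure D5:**
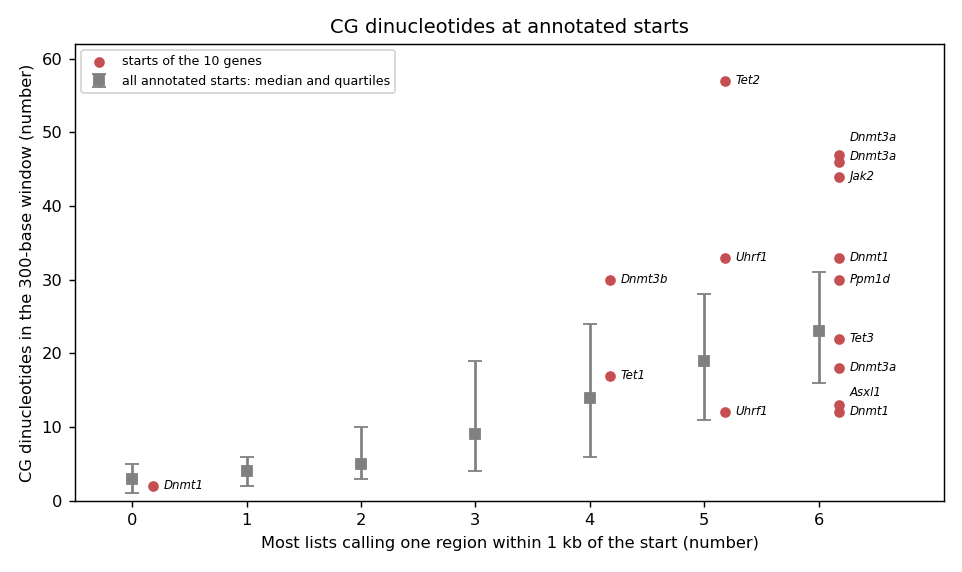
Number of CG dinucleotides in the 300-base window of a start (vertical axis) against the largest number of lists that called 1 region within 1 kb of it (horizontal axis), with grey squares and bars for the median and quartiles of all annotated starts and red points for the 15 starts of the 10 genes. The most 5′ Dnmt1 start sits at 0 lists with 2 CG dinucleotides, and Tet2 at 5 lists with 57.

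Short motifs were searched on both strands of the same windows, with overlapping matches allowed. The windows of the Dnmt3a starts at 3806980 and 3807160 share bases. The GC box GGGCGG was present at 13 of the 15 starts and at 35.9% of all starts of the table. It was missing at the most 5′ Dnmt1 start and at the internal Dnmt1 start at 20952979. The CCAAT box CCAAT was present at 6 of 15 starts (37.6% of all), with 5 matches at the most 5′ Dnmt1 start. The NRF1 core GCATGCG was found at 4 (3.59%), namely both internal Dnmt1 starts, Tet2 and the downstream Uhrf1 start. The cAMP response element TGACGTC was found at Tet2 and Ppm1d (3.23%), the ETS core CCGGAAG at Asxl1 (8.92%), the E-box CACGTG at the internal Dnmt3a start (7.20%) and the E2F form TTGGCGC at the Dnmt1 start at 20952623 (2.47%). Neither the AP-1 motif TGANTCA (7.85%) nor the TATA box TATAAA (13.7%) was in any of the 15 windows. A match is a run of letters and not a bound site.

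Other genes of the pathway behaved much like the 10. Of 28 further genes of DNA methylation, demethylation and methyl donor supply 24 were matched to a start, and 17 had a region at some start in all 6 lists, 22 in at least 5. These included Uhrf2, Idh1 and Idh2, which make the cofactor of the Tet enzymes, and Mat2a and Ahcy of the methionine cycle. Tdg and Smug1, glycosylases that excise modified bases, Hells, a remodeller needed for DNA methylation, Zbtb4, a reader of methylated DNA, and Ogt, which binds the Tet proteins, reached 5 lists, and Apex1, an endonuclease of base excision repair, reached 4. Dnmt3l, the cofactor of de novo methylation in germ cells, was called in aged replicate 1 only. Of 45 further genes mutated in human clonal haematopoiesis 38 were matched, and 28 had a region in all 6 lists, 35 in at least 5. Gnas, Nras, Bcor, Csf3r, Kmt2d, Creb1 and Crebbp reached 5 lists, Flt3 and Cebpa 4 and Bcorl1 2. Zbtb33 stands in both lists. All of these shares, 70.8% and 73.7% in all 6 lists at any start, lie above the 33.4% of protein-coding genes, as does that of the 10 genes (60.0%).

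By list, the promoters of the 10 genes were called for 9, 10 and 10 genes in aged lists and for 10, 7 and 10 in young lists. The 24 further methylation genes gave 24, 23 and 20 in aged lists and 23, 20 and 23 in young lists, and the 38 further clonal haematopoiesis genes 37, 38 and 34 in aged lists and 37, 30 and 38 in young lists. Within each age the lowest of these counts came from aged replicate 3 or young replicate 2, apart from the 9 of aged replicate 1. Over all protein-coding genes, the same 2 lists called 53.3% and 50.7% of promoters, against 65.6% to 68.2% in the other 4.

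The density of regions at the loci was ordinary. The 10 loci held a median of 41.5 regions per 100 kb (range 31.4 to 49.9), against a median of 38.7 over the loci of 21631 protein-coding genes. Regions called in all 6 lists had a median density of 1.73 per 100 kb at the 10 loci and 0.630 over all protein-coding loci.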

How the data were processed

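Peak lists of ATAC-seq on 3 aged and 3 young samples of C57BL/6 LT-HSCs were analysed, grouped and numbered as their titles say. The build mm10 and the tools Bowtie2, SAMtools, Picard and MACS2 are named per the submitters' processing notes. Versions, settings, any shift for Tn5 and the read depth are not given in the sources used here. Each deposited list holds per peak a score, a fold enrichment (ratio) over background, a −log10 p and −log10 q and a summit. All are the authors' values. No deposited peak has a p-value above 0.01, and each sample has its own list. Peak values depend on depth, so the −log10 p was used only as a rank.

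Rows with identical coordinates were counted once and peaks merged across lists at 1 bp overlap (Python 3.11.15, pandas 2.3.3, NumPy 2.4.6, SciPy 1.17.1, matplotlib 3.10.9). Percentiles average ties. A promoter region overlaps 1 kb on each side of an annotated start of RefSeq (GRCm38.p6), and all 10 genes were matched. The most 5′ start of the promoter table was used unless any start is named. Counts per list and shares were tested with exact permutation tests, and intervals are 95% Wilson intervals. Counting was tested on simulated lists. The genes and gene lists were chosen with earlier results of these data known. Named by rule were all 10 genes, their promoter regions, up to 3 intragenic regions each and every region of 1 age alone. The regions upstream of Tet1, Dnmt1 and Dnmt3a, downstream of Tet2 and at neighbouring genes were named after their values were seen. The main tests did not treat same-numbered samples as pairs, although their titles share a number after exp. Alternatives were a q-value limit, equal list lengths, merging at 100 bp, flanks of 0 and 10 kb, a 500 bp promoter window, each replicate left out and, chosen after seeing the data, any start, both lists that stand apart left out, and differences within same-numbered pairs.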

Additional observations from a re-analysis of the deposited data

How the results depend on the processing

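The difference in regions per list between aged and young, −1.33, had no stable direction: it was 3.33 with q-values of at most 0.05, 10.7 with lists of equal length, 3.67 and 2.67 with flanks of 0 and 10 kb, −22.5 to 16.0 with 1 replicate left out, and 17.5 without aged replicate 3 and young replicate 2. The share of peaks at the loci differed by −0.000405 percentage points with q-values of at most 0.05, and by 0.00371 to 0.0228 with 1 replicate left out. As a replicate block the 2 differences were −1.33 (p = 1) and 0.0113 (p = 0.75, exact sign-flip permutation test, smallest p 0.25). Neither this test nor the unpaired one, with a smallest p of 0.1, could fall below 0.05. The 2 tests therefore cannot show whether the pairing matters. Same-numbered samples share a number after exp in their titles, whose meaning is not stated, and did not deviate together (r = 0.0246, −0.170 and −0.0501 across 9582 regions), which does not show that they were handled apart. Leaving out lists asks for fewer calls by construction. Regions of all aged and no young lists numbered 0 to 7 with 1 replicate left out and 8 without aged replicate 3 and young replicate 2. Regions of all young and no aged lists numbered 0 with the q limit, with equal lengths and with merging at 100 bp, 1 to 6 with 1 replicate left out and 2 without both lists. Regions in all lists numbered 12 with no flank, 19 to 29 with 1 replicate left out (29 without young replicate 2) and 40 without both lists. Ranks without overlap numbered 4 to 6 with 1 replicate left out, where fewer values have to separate, and 2 under every other setting run. Genes with a promoter region in all lists stayed between 5 and 7. The Dnmt1 difference was −1.90 as a percentile of the whole list, where the scale near 100 is narrow, and −31.1 to −14.0 with 1 replicate left out and ranks rebuilt over the remaining lists. Tet3, Asxl1 and Ppm1d changed sign within that range (−22.6 to 2.03, −1.50 to 8.87 and −1.22 to 9.68). Read depth is unknown, so a missing call is no evidence of closed chromatin.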

Other observations

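Several of the strongest regions at these loci belong to neighbours. The region at an end of Kdm4b, a histone demethylase gene next to Uhrf1 (chr17:56325359-56326352), ranked at 99.7, 99.99 and 99.6 in the aged lists and at 99.9, 99.9 and 98.4 in the young lists. The region at an end of Bcas3, next to Ppm1d (chr11:85352405-85353462), ranked at 99.9, 99.1 and 97.9 in the aged lists and at 99.9, 99.8 and 97.7 in the young lists. At an end of Ccar1, next to Tet1, chr10:62791823-62792676 ranked at 98.9, 99.3 and 98.7 in the aged lists and at 98.8, 99.9 and 98.7 in the young lists, above every region of Tet1 itself in each list. Whether any of these regions bears on the neighbouring gene was not tested.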
